A study of Mus musculus with 12 samples.

Results

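Expression of 8 genes of dendritic cell development and maturation, *Flt3l*, *Flt3*, *Csf2rb*, *Irf8*, *Irf4*, *Itgae*, *Cd83* and *Lamp3*, was examined in mouse mammary tumors 3 days after the start of treatment. The members were chosen by gene symbol, and all 8 were found among the 750 genes of the nanoString immune panel, a hybridization assay that counts single labelled RNA molecules without amplification. The tumors came from the K14-Cre;Brcaf/fTrp53f/f model of triple negative breast cancer (the Brca allele is *Brca1* in the study's methods), in which Cre is driven by the keratin 14 promoter of epithelial cells, and were transplanted to the mammary fat pad of immunocompetent FVB/129P2 females of matching background. Every tumor, those of the vehicle group included, therefore carried the model's deletions in the tumor cells, and the labels give no ages for the mice.

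Each of the 4 groups held 3 tumors. Vehicle mice (tumors 1269, 1529 and 1536) received DMSO in saline by intraperitoneal injection and saline in the tumor. ADU-S100 mice (1506, 1512 and 1513) received diluted DMSO, in saline by the labels although the study's methods also name PBS for this group, and 50 μg of ADU-S100, a cyclic dinucleotide agonist of STING, in one intratumoral injection of 40 μl on the first day. Olaparib mice (1510, 1517 and 1521) received the PARP inhibitor each day for 3 days, at 50 mg/kg, with saline in the tumor, and Combination mice (1251, 1270 and 1539) received both drugs. Dosing began at a tumor volume of 150 to 300 mm3. The labels number the tumors but do not say whether each came from a separate mouse or donor tumor, and the p-values measure the spread between these samples.

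Dendritic cells arise from bone marrow progenitors under the cytokine FLT3 ligand, which acts through the receptor FLT3, and the cytokine GM-CSF, which signals through the common beta chain encoded by *Csf2rb*, shapes the cells that leave the blood for tissues. The transcription factor IRF8 directs the cross-presenting lineage, which carries CD103 (*Itgae*) in many tissues and primes CD8+ T cells against tumors, whereas IRF4 directs a lineage that mainly serves CD4+ T cells. After sensing danger, dendritic cells mature, display CD83 and the lysosomal protein DC-LAMP (*Lamp3*), and migrate to lymph nodes.

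The deposited values were normalized counts, and one counted molecule was worth between 0.589 and 10.5 units depending on the tumor. This worth of 1 count, called the scaling step here, was lowest in Olaparib 1521 and highest in Olaparib 1517, and it was within 0.810 to 0.824 in the 3 Combination tumors. The recovered totals ran from 106206 counts in Olaparib 1517 to 1519471 in Vehicle 1269. Olaparib 1517 stood apart from the other 11 tumors in both, so the changes of the 8 genes with olaparib are also given without it. As a marker of leukocytes, *Ptprc* (CD45) was detected in every tumor at 152 to 1003 normalized counts, and *Itgax* (CD11c), a defining marker of dendritic cells that some macrophages share, at 63.0 to 222. *Usp9y*, a gene of the Y chromosome that female mice lack, reached 9 counts at most. Each of the 8 genes exceeded the *Usp9y* count of the same tumor in all 12 tumors, but *Lamp3* only by 5 counts to 4 in ADU-S100 1512. *Lamp3*, at 5 to 16 counts, and *Flt3*, at 3 to 29, also lay under 9 in some tumors.

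**Figure D1:**
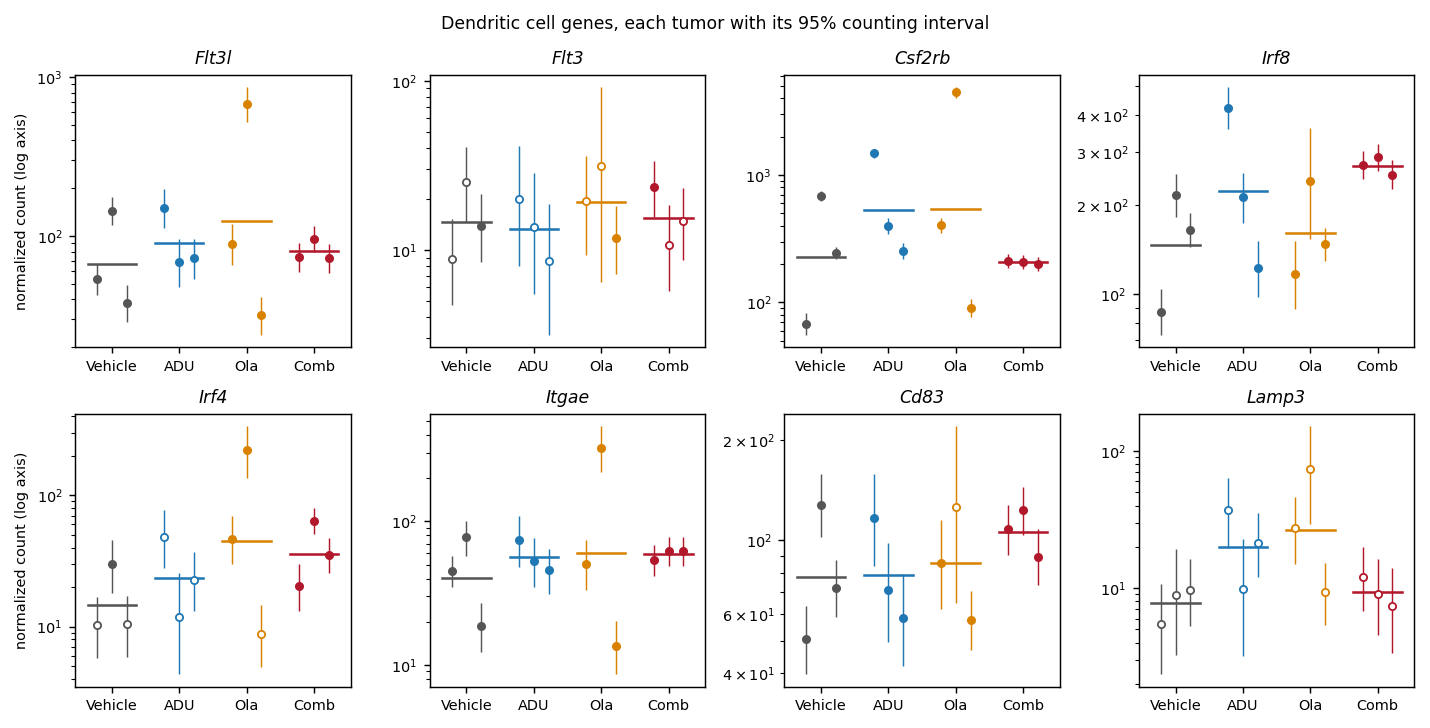
Normalized count (vertical log axis) of each of the 8 genes in each of the 12 tumors, by group. Points are tumors, thin bars the 95% counting interval, thick lines the geometric mean of a group, and open points values resting on fewer than 20 counts. All 12 *Lamp3* points are open, the 3 Combination tumors lie close together for *Irf8* and *Csf2rb*, and Olaparib 1517 is the highest tumor for 6 of the 8 genes.

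None of the 8 genes passed the adjusted threshold in any of the 6 tests made, which were 5 pairwise comparisons and the interaction of the drugs (limma on log2 values, adjusted over 689 genes). The background was the same, with 0% of the 689 genes called in each test. At an unadjusted limma p under 0.05, *Lamp3* was the only one of the 8, higher in Olaparib than in Vehicle and below 0 in the interaction. Over all genes that share was 7.55% higher and 0.145% lower for Combination over Vehicle, 4.64% and 0.145% for ADU-S100 over Vehicle, and 5.81% and 1.45% for Olaparib over Vehicle. It was 4.5% higher and 4.64% lower for Combination over ADU-S100, 4.5% and 2.76% for Combination over Olaparib, and 1.89% and 9% for the interaction. The levels of the genes ran differently across the tumors. *Irf8* was higher in all 3 Combination tumors than in any Vehicle or Olaparib tumor. Of all 689 genes, 18.4% separated upward in this way from Vehicle and 11% from Olaparib. *Lamp3* reached its 4 highest values under the single drugs and rested on at most 16 counts. The remaining single-drug tumors, ADU-S100 1512 at 9.82 and Olaparib 1521 at 9.43, lay below Combination 1251 at 12.2. *Csf2rb* spanned 65.3-fold across tumors while it varied by only 2.17% (coefficient of variation) within the Combination group.

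The promoters of *Irf8* and *Lamp3* are shown because each gene had a group that lay wholly above Vehicle, and because both hold letters that interferon-activated factors are known to bind. Since they were picked partly for these letters, the matches given below are a description only. A link between the letters and the levels of the genes was not tested. The sequences are from RefSeq (GRCm38.p6), run 5′ to 3′ on the coding strand and end at the base before the transcription start. Capitals mark matches on either strand to the GAS element of STAT factors (TTCNNNGAA) or to the ISRE core of interferon regulatory factors and STAT complexes (GAAANNGAAA).
Irf8 promoter, chr8:120736108-120736357, plus strand: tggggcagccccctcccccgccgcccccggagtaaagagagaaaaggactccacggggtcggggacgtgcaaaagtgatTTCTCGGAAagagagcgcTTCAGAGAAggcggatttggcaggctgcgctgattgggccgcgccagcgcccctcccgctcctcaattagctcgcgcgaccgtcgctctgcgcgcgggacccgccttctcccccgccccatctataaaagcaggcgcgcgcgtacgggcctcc
Lamp3 promoter, chr16:19706366-19706615, minus strand: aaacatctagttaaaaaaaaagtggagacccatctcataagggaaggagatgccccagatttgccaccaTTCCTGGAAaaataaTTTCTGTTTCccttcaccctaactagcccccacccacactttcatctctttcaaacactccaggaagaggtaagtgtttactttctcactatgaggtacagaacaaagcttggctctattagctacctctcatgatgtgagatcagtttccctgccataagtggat
In the *Irf8* promoter the GAS matches began 171 and 153 bases before the start. The *Lamp3* promoter held 1 GAS match 181 bases before the start and 1 ISRE match 166 bases before it. GAS matches were present in 7.02% and ISRE matches in 2.98% of all 32851 mouse promoters of this length. RefSeq promoters were at hand for 5 of the 8 genes, in 6 windows, of which *Irf8* had 2 with the upstream one shown, and *Flt3l* held the other ISRE match (TTTCACTTTC, directly before the start that the table gives). None of the 6 windows contained the ETS-IRF composite GGAANNGAAA, the NF-kB letters GGGANTTTCC or the AP-1 letters TGANTCA, which were found in 2.3%, 0.356% and 6.75% of all promoters.

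*Irf8* encodes the transcription factor that commits progenitors to the cross-presenting dendritic cell lineage and that monocytes, macrophages and B cells also use. Normalized counts were 87.3, 216 and 165 in Vehicle tumors 1269, 1529 and 1536, and 272, 289 and 253 in Combination tumors 1251, 1270 and 1539. Under ADU-S100 they were 424, 212 and 123 in tumors 1506, 1512 and 1513, and under olaparib 117, 241 and 147 in tumors 1510, 1517 and 1521. The Combination values lay above every Vehicle and every Olaparib tumor and inside the range of the ADU-S100 tumors. In counted molecules Combination stood apart from all other tumors, with 308 to 350 counts, beside 128 to 238 in Vehicle, 86 to 149 in ADU-S100 and 23 to 250 in Olaparib. These counts are not scaled for the depth of a tumor, and the totals of the Combination tumors, 1339258 to 1491854, lay above those of all ADU-S100 tumors.

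The group means of *Irf8* were 156 ± 64.6 for Vehicle, 253 ± 155 for ADU-S100, 168 ± 64.7 for Olaparib and 271 ± 18.0 for Combination (SD, n = 3 each). The log2 fold change of Combination over Vehicle was 0.89 with a standard error of 0.52 and a limma adjusted p of 0.705. Without Vehicle 1269 it was 0.52, and after scaling to the same *Ptprc* value 0.34. Against Olaparib it was 0.75 with the same standard error and a limma adjusted p of 0.663. This change was 1.04 without Olaparib 1517, 0.52 without Olaparib 1510 and 0.40 after scaling to *Ptprc*. Neither change passed the adjusted test. *Irf8* was the only one of the 8 genes that separated upward in these comparisons, where 18.4% of all 689 genes separated upward from Vehicle and 11% from Olaparib. Downward separations made up 1.6% and 1.74% of all genes and none of the 8. The changes with ADU-S100 alone and olaparib alone were 0.61 and 0.14. The first was 0.14 without ADU-S100 1506 and 1.04 without ADU-S100 1513, and the second was -0.15 without Olaparib 1517. When all tumors were brought to 1 median over the genes, *Irf8* ran from 240 to 295 in Combination and from 120 to 230 in the other 9 tumors, a comparison made after the values were seen. On this scale 3.34% of all 689 genes, and *Irf8* alone of the 8, were higher in every Combination tumor than in the other 9. Against ADU-S100 alone 17.3% of all genes were, with *Irf8* and *Cd83* among the 8.

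In these bulk tumors, fewer cells of a type and less RNA per cell cannot be told apart. Relative to *Ptprc*, the log2 level of *Irf8* was -0.60 ± 0.12 in Combination, -0.94 ± 0.26 in Vehicle, -1.22 ± 0.02 in ADU-S100 and -1.01 ± 0.83 in Olaparib (SD, n = 3 each). Relative to *Itgax* the order was different, with 0.87 ± 0.71 in Vehicle, 1.26 ± 0.66 in ADU-S100, 0.41 ± 0.82 in Olaparib and 0.59 ± 0.36 in Combination. *Itgax* itself was 83.9, 95.1 and 63.0 in Vehicle and 222, 145 and 180 in Combination. Olaparib 1510, at 160, lay above Combination 1270, at 145. The other Olaparib tumors and the ADU-S100 tumors, at 72.8 to 105, lay below every Combination tumor. Vehicle and Combination did not overlap for *Itgax*, and 18.4% of all 689 genes separated upward in this comparison. *Itgax* did not pass the test (limma adjusted p = 0.347). The markers of T and NK cells were also higher in Combination than in Vehicle, 14 of 14 tested being positive where 65.3% of all genes were. Their summed level was 634 to 1036 in Combination, 272 to 522 in Vehicle, 448 to 1333 in ADU-S100 and 309 to 1624 in Olaparib, with none of the 16 measured markers at 0 counts in any tumor. The part of other cell types in the *Irf8* values was not tested.

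*Irf4* encodes the related factor of the other conventional lineage and is also used by activated T cells and plasma cells. It measured 10.2, 29.7 and 10.4 in Vehicle and 20.3, 64.3 and 35.3 in Combination. It measured 48.4, 11.8 and 22.8 with ADU-S100 and 46.8, 220 and 8.84 with olaparib. All 4 groups overlapped, and both the highest and the lowest tumor, 24.9-fold apart, were in the Olaparib group. *Irf4* rested on 6 to 78 counts, with fewer than 20 in 6 of the 12 tumors. The log2 changes against Vehicle were 1.23 for Combination, 0.65 for ADU-S100 and 1.57 for Olaparib, with a standard error of 0.98 and adjusted p-values of 0.930, 0.927 and 0.582 (limma). Without Olaparib 1517 the Olaparib change was 0.46, and without Olaparib 1521 it was 2.70. The ADU-S100 change was 0.15 without ADU-S100 1506 and 1.13 without Vehicle 1529, and the Combination change was 0.81 without Combination 1270 and 1.71 without Vehicle 1529.

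FLT3 ligand and its receptor form the axis on which dendritic cell numbers depend. *Flt3l* measured 53.9, 144 and 38.1 in Vehicle, 151, 68.8 and 72.8 in ADU-S100, 89.6, 681 and 31.8 in Olaparib, and 73.7, 96.5 and 73.0 in Combination. The 3 treated groups all overlapped with Vehicle, and the value of 681 in Olaparib 1517 came from 65 counts, within the range of 35 to 117 counts of all tumors. The log2 changes against Vehicle were 0.26 for Combination, 0.44 for ADU-S100 and 0.90 for Olaparib, with a standard error of 0.92 and limma adjusted p-values of 0.989, 0.932 and 0.710. Leaving out Olaparib 1517 turned the Olaparib change to -0.31. The ADU-S100 change ran from 0.045 without Vehicle 1536 to 0.99 without Vehicle 1529.

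The receptor gene *Flt3*, expressed by progenitors and conventional dendritic cells, was near the lower end of what the assay resolved. Its values were 8.87, 25.3 and 13.9 in Vehicle, 19.9, 13.8 and 8.56 in ADU-S100, 19.5, 31.4 and 11.8 in Olaparib, and 23.5, 10.7 and 14.8 in Combination. These values rested on 3 to 29 counts, with fewer than 20 in 9 tumors, and the 31.4 of Olaparib 1517 rested on 3 counts with a 95% counting interval of 6.48 to 91.9. All groups overlapped. The log2 changes were 0.08 for Combination, -0.13 for ADU-S100 and 0.38 for Olaparib against Vehicle (standard error 0.52), and the 95% interval for Combination ran from -1.07 to 1.22. The Olaparib change was 0.046 without Olaparib 1517 and 0.75 without Vehicle 1529.

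*Csf2rb* encodes the beta chain shared by the receptors for GM-CSF, IL-3 and IL-5, which is present on dendritic cells, macrophages, neutrophils and eosinophils. It measured 68.2, 685 and 246 in Vehicle and 1475, 399 and 254 in ADU-S100. It measured 401, 4454 and 90.2 in Olaparib and 211, 207 and 202 in Combination. The 3 Combination tumors were close to one another, at 206 ± 4.49 (SD, n = 3), while Vehicle tumors had a mean of 333 ± 318. The 95% counting intervals of these 3 Combination values ran from 177 to 238, wider than the spread between them. All 3 Combination tumors lay below all 3 ADU-S100 tumors, as did 20.9% of the 689 genes, while 10.4% lay wholly above and none of the 8 did. In counted molecules the 246 to 260 of Combination lay inside the 178 to 518 of ADU-S100.

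The log2 change of *Csf2rb* from ADU-S100 to Combination was -1.36 with a standard error of 1.25 (limma adjusted p = 0.691), and -0.62 without ADU-S100 1506. Against Vehicle the changes were -0.13 for Combination, 1.23 for ADU-S100 and 1.27 for Olaparib, with adjusted p-values of 0.989, 0.839 and 0.710. The ADU-S100 change was 0.37 without Vehicle 1269 and 2.02 without Vehicle 1529, and the Combination change -0.99 and 0.67. The interaction, the change that ADU-S100 made on top of olaparib minus the change it made alone, was -2.63 with a standard error of 1.77 and an adjusted p of 0.488. Without Olaparib 1517 the change with olaparib was -0.25 and the interaction -1.11, and without Olaparib 1521 they were 2.56 and -3.92. The gene lies on chromosome 15 from 78325800 to 78351001, next to the near-identical *Csf2rb2*, whose product serves IL-3 alone. Which of the pair the probe captured is uncertain, since no probe sequence was at hand. Of the other growth factors and receptors fixed in a list, 12 of 14 were on the panel, and 0 passed the adjusted test in any comparison. The 2 with the highest levels were the stem cell factor receptor *Kit*, at 2588 ± 402 in Combination and 1996 ± 1551 in Vehicle, and the receptor-associated kinase *Jak2*, at 2181 ± 225 and 1754 ± 734. Both differences were within the SD of Vehicle.

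*Itgae* encodes the alpha chain of CD103, an integrin of cross-presenting dendritic cells and of resident T cells that binds E-cadherin on epithelium. Values were 45.0, 77.3 and 18.7 in Vehicle, 74.1, 53.0 and 45.7 in ADU-S100, 50.7, 325 and 13.6 in Olaparib, and 53.5, 61.8 and 62.3 in Combination. The Combination tumors varied by 8.40% and lay inside the range of Vehicle, and the Olaparib group again held both the highest and the lowest tumor. The log2 changes against Vehicle were 0.54, 0.47 and 0.60 for Combination, ADU-S100 and Olaparib, each with a standard error of 0.91 (limma adjusted p = 0.989, 0.927 and 0.788). The Olaparib change was -0.59 without tumor 1517 and 1.65 without tumor 1521. Without Vehicle 1536 the Combination change was 0.00072 and the ADU-S100 change -0.064, and without Vehicle 1529 they were 0.996 and 0.93.

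*Cd83*, a surface protein that mature dendritic cells and activated B cells display, varied least of the 8 genes between its lowest and highest tumor, by 2.53-fold. It measured 50.5, 128 and 72.0 in Vehicle, 117, 70.7 and 58.5 in ADU-S100, 85.7, 126 and 57.7 in Olaparib, and 108, 123 and 89.4 in Combination. The Combination values were in the upper part of the range but below Vehicle 1529, so no groups were separated. The means were 83.5 ± 39.9, 82.0 ± 30.7, 89.7 ± 34.2 and 107 ± 16.8 in that order (SD, n = 3 each). The log2 changes against Vehicle were 0.44 for Combination, 0.02 for ADU-S100 and 0.14 for Olaparib, with a standard error of 0.46 (limma adjusted p = 0.962, 0.998 and 0.933). The Olaparib change was -0.14 without Olaparib 1517, and the Combination change was 0.14 without Vehicle 1269 and 0.80 without Vehicle 1529. The 126 of Olaparib 1517 rested on 12 counts, with a counting interval of 65.0 to 220.

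*Lamp3* encodes DC-LAMP, a lysosomal membrane protein found in mature dendritic cells and in type II cells of the lung. It measured 5.46, 8.92 and 9.70 in Vehicle and 12.2, 9.07 and 7.38 in Combination. It measured 37.0, 9.82 and 21.4 in ADU-S100 and 27.3, 73.4 and 9.43 in Olaparib. *Lamp3* reached the filter level of 20 in 4 tumors, all under a single drug, so it passed the filter only through the groups where it was high. The 3 ADU-S100 tumors lay above the 3 Vehicle tumors, the nearest pair being 9.82 and 9.70, and 13.9% of the 689 genes separated in this way (1.02% lower, none of them among the 8). No gene of the 8 separated between Olaparib and Vehicle, where 3.77% of all genes separated upward and 1.02% downward. In counts *Lamp3* stood at 8, 6 and 14 in Vehicle, 13, 5 and 15 in ADU-S100, 14, 7 and 16 in Olaparib, and 15, 11 and 9 in Combination, and these overlapped. The 73.4 of Olaparib 1517 rested on 7 counts.

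The log2 change of *Lamp3* was 1.67 for Olaparib over Vehicle, with a standard error of 0.67, an unadjusted limma p of 0.0304 and an adjusted p of 0.582. The change was 1.25 for ADU-S100 (adjusted p = 0.809) and 0.23 for Combination (adjusted p = 0.989). From Olaparib to Combination it was -1.43 (adjusted p = 0.594). The interaction was -2.68 with a standard error of 0.95, an unadjusted limma p of 0.0163 and an adjusted p of 0.346. Without Olaparib 1521, *Lamp3* passed the adjusted test in Olaparib over Vehicle, at 2.38 (limma adjusted p = 0.0436), and in the interaction, at -3.40 (adjusted p = 0.0246). In that setting 7.98% and 12.5% of all 689 genes passed, and 1 of the 8 genes is close to that background. Without Olaparib 1517, the change over Vehicle was 0.96, that from Olaparib to Combination -0.73 and the interaction -1.98. The ADU-S100 change was 0.82 without ADU-S100 1506, and the Combination change was 0.0071 without Vehicle 1269 and 0.38 without Combination 1539. Under quantile normalization the changes with ADU-S100 and olaparib were 0.31 and 0.76 and the interaction -0.95. *Lamp3* was then no longer at an unadjusted p under 0.05 in either test, nor with the first digits of the tumor number as a block, and the same held for olaparib over Vehicle in the compared groups alone and by the methods' t-test. From Olaparib to Combination it reached an unadjusted p under 0.05 after median scaling, at -1.33, and *Ptprc* scaling, at -1.75 (limma adjusted p = 0.329 and 0.320).

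**Figure D2:**
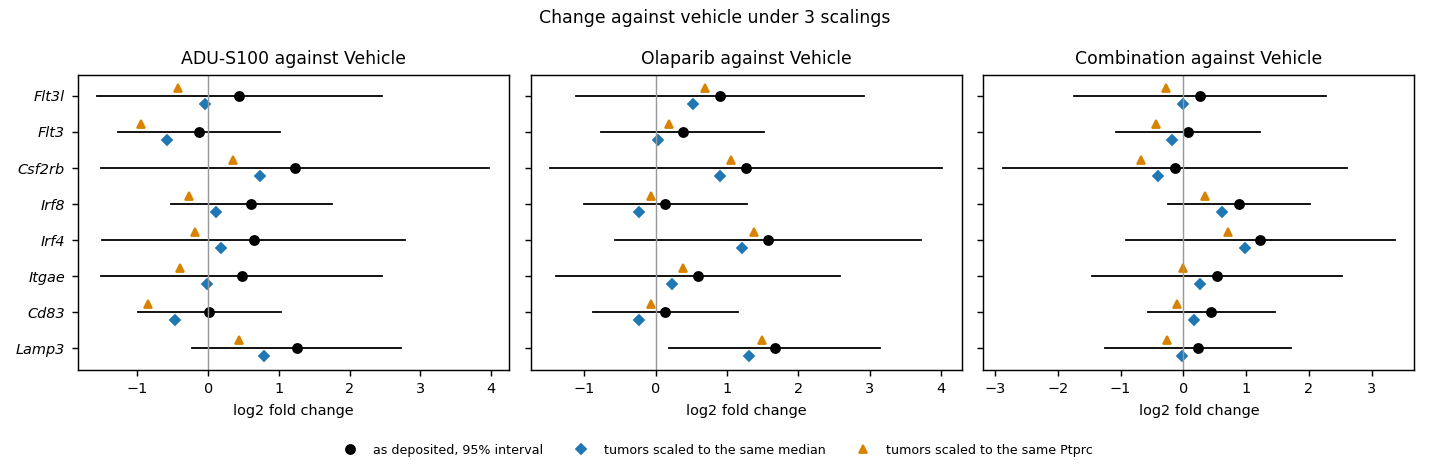
Log2 fold change (horizontal axis) of the 8 genes for ADU-S100, Olaparib and Combination against Vehicle. Black points and bars are the limma estimate and its 95% interval on the deposited values, diamonds the estimate after scaling each tumor to the same median over all genes, and triangles after scaling to the same *Ptprc* value; of the 24 intervals only that of *Lamp3* with olaparib lies wholly above 0.

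As deposited, 7 of 8 genes were higher in Combination than in Vehicle, 7 of 8 with ADU-S100 and 8 of 8 with olaparib. Among all 689 genes 65.3%, 78.2% and 74.6% were higher in the same comparisons. After scaling each tumor to the same median the counts were 4, 4 and 6 of 8, and after scaling to the same *Ptprc* value 2, 2 and 6 of 8. The median log2 change of the 8 genes was 0.35, 0.54 and 0.75 as deposited, beside 0.21, 0.44 and 0.45 over all 689 genes. Single tumors moved these medians. Without Olaparib 1517, 3 of 8 genes were higher with olaparib than in Vehicle, with a median of -0.15 beside 0.087 over all genes, and without Olaparib 1521 8 of 8 were, with a median of 1.76 beside 0.81. The Combination median was 0.12 without Vehicle 1269 and 0.81 without Vehicle 1529, and the ADU-S100 median was 0.14 without ADU-S100 1506 and 0.96 without Vehicle 1529. After scaling to *Ptprc* the 3 medians were -0.18, -0.33 and 0.54, beside -0.32, -0.43 and 0.24 over all genes. The positive signs of *Irf8* and *Irf4* for Combination, and of *Lamp3* and *Csf2rb* for both single drugs, held under every scaling tried, although the sizes moved, to 0.35 for *Csf2rb* and 0.44 for *Lamp3* with ADU-S100 after scaling to *Ptprc*. Those of *Flt3l*, *Flt3*, *Itgae*, *Cd83* and *Lamp3* for Combination turned in at least one. Any change with a sign that turned was relative to the scaling chosen. From Olaparib to Combination, and in the interaction, 2 of 8 changes were positive, beside 41.4% and 30.9% of all genes. Without Olaparib 1517 these were 7 and 6 of 8. The medians of the 8 genes were -0.33 and -0.76, beside -0.15 and -0.55 over all genes. They were 0.58 and 0.15 without Olaparib 1517, beside 0.22 and -0.21, and -1.29 and -1.82 without Olaparib 1521, beside -0.53 and -0.98. By median and quantile scaling the interaction median was -0.18 and 0.04, with 4 and 5 of 8 positive.

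**Figure D3:**
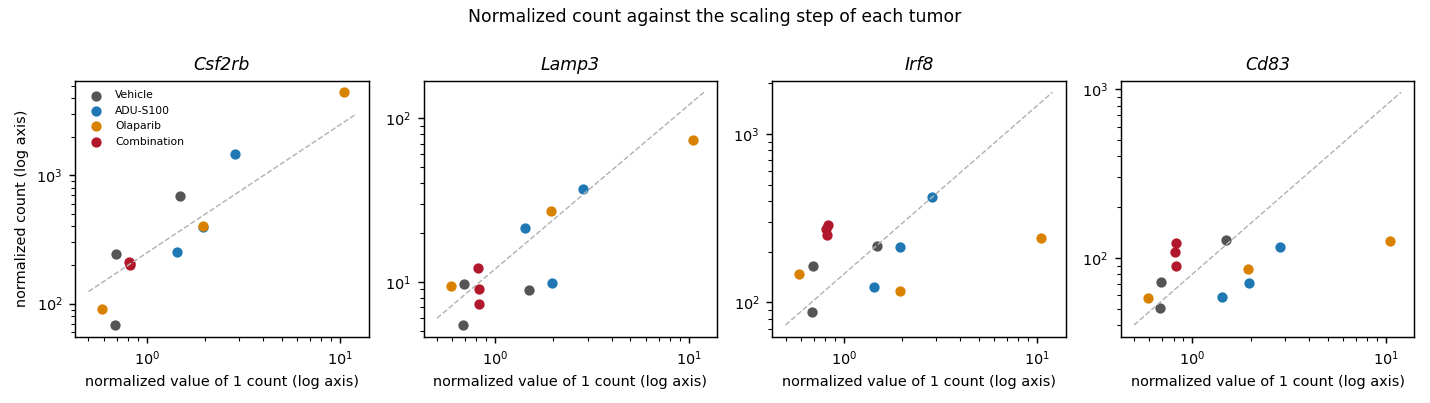
Normalized count (vertical log axis) of *Csf2rb*, *Lamp3*, *Irf8* and *Cd83* against the scaling step, the normalized value of 1 count in each tumor (horizontal log axis), coloured by group. The dashed line is what the gene's median count would give at each step; *Csf2rb* and *Lamp3* follow it (r = 0.93 and 0.88 over 12 tumors), while *Irf8* and *Cd83* lie flatter (r = 0.31 and 0.48).

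The scaling step moved with several of the genes. Over the 12 tumors the correlation of the log2 value with the log2 step, which each value contains as a factor, was 0.93 for *Csf2rb*, 0.90 for *Flt3l*, 0.88 for *Lamp3*, 0.83 for *Itgae*, 0.76 for *Irf4*, 0.63 for *Flt3*, 0.48 for *Cd83* and 0.31 for *Irf8*. Without Olaparib 1517 these were 0.87, 0.73, 0.75, 0.59, 0.47, 0.40, 0.35 and 0.31. The median over all 689 genes was 0.59, with quartiles of 0.13 and 0.81. *Irf8* and *Cd83* thus followed the step less closely than the median gene, and the part of the step in the differences between groups was not tested. The counts of *Lamp3* spanned 3.2-fold over the tumors while its normalized counts spanned 13.4-fold, and those of *Csf2rb* spanned 5.18-fold against 65.3-fold. For *Irf8* the order was the opposite, with counts spanning 15.2-fold and normalized counts 4.86-fold. Olaparib 1517 set the top of the normalized ranges of *Lamp3* and *Csf2rb* and held the lowest *Irf8* count. Without it, normalized *Lamp3* ran from 5.46 to 37.0 and *Csf2rb* from 68.2 to 1475, and the *Irf8* counts ran from 60 to 350.

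The tumor numbers began with 12 or 15, a difference that no label explains. All ADU-S100 and Olaparib tumors began with 15, while 2 Combination tumors and 1 Vehicle tumor began with 12. Within the numbers beginning with 12, the Combination minus Vehicle difference in log2 level was 1.67 for *Irf8*, 1.73 for *Irf4*, 1.17 for *Cd83* and 1.60 for *Csf2rb*. Within those beginning with 15 it was 0.42, 0.95, -0.10 and -1.02. *Irf8*, *Irf4* and *Itgae* (0.35 and 0.69) were higher in Combination in both, and the other 5 genes had opposite signs.

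The genes most like each of the 8 were ranked by Pearson correlation over the 12 tumors after scaling each tumor to the same median, as a description. *Irf8* was most like *Cd48*, *Il10ra* and *Il21r* (r = 0.90, 0.90 and 0.88), and these were its first 3 without Olaparib 1517 too. *Cd83* was most like *Cd74*, *H2-DMa* and *H2-Aa* (r = 0.87, 0.85 and 0.84), which encode the invariant chain, a peptide loading chain and a chain of MHC class II and which ranked 1, 2 and 4 without that tumor. *Itgae* and *Flt3l* were among the 3 most like each other (r = 0.90, and 0.83 without Olaparib 1517). The next genes for *Itgae* were *Cd3d* and *Ctla4*, both expressed by T cells (r = 0.83 and 0.80), and they ranked 2 and 3 without Olaparib 1517 too. *Irf4* was most like *Txnip*, *Il15ra* and *Cd3d* (r = 0.88, 0.86 and 0.84), *Lamp3* most like *Havcr2*, *Sbno2* and *Il5ra* (0.87, 0.85 and 0.82), and *Csf2rb* most like *Jak3*, *Cd55* and *H2-Q2* (0.95, 0.92 and 0.92). Without Olaparib 1517 the 3 genes named for *Irf4* ranked 4, 10 and 7, those for *Lamp3* 2, 3 and 4, and those for *Csf2rb* 5, 12 and 18. *Flt3l* was most like *Hc*, *Txnip* and *Itgae* (0.92, 0.90 and 0.90), which ranked 11, 24 and 2 without that tumor. *Flt3* had no correlation above that with *Ccl17*, at 0.73, and without Olaparib 1517 that with *Foxj1* was the highest, at 0.74. Within the 8 genes, *Irf8* had r = 0.50 with *Cd83*, -0.54 with *Flt3l* and -0.55 with *Lamp3* on this scale, and 0.40, -0.38 and -0.41 without Olaparib 1517.

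The remaining dendritic cell genes of the panel were described from lists. Of 22 listed transcription factors 12 were measured, of 12 surface markers 5 and of 19 maturation genes 16, and 0 of each list passed the adjusted limma test in any comparison. For Combination over Vehicle, 12 of 15 tested maturation genes had a positive change, with a median log2 change of 0.72 beside 0.21 for all genes. The chemokine gene *Ccl22* and the IL-12 subunit gene *Il12b* had an unadjusted p under 0.05 and are named after their values were seen (limma adjusted p = 0.278 for both). The 2 maturation genes with the highest levels were *Cd200*, an inhibitory ligand, at 1373 ± 449 in Vehicle and 1963 ± 436 in Combination, and *Cd274* (PD-L1), at 181 ± 92.3 and 395 ± 71.5. *Cd274* was 340 ± 128 with ADU-S100 and 514, 440 and 137 in Olaparib tumors 1510, 1517 and 1521, the 440 resting on 42 counts. Of the transcription factors, 11 of 12 were positive for Combination over Vehicle with a median of 0.23, beside 65.3% positive and a median of 0.21 over all genes. *Cebpb*, a regulator of myeloid cells, and *Stat3*, which relays FLT3 and IL-10 signals, had the highest levels of these. They stood at 10612 ± 1665 and 5531 ± 1342 in Combination against 8089 ± 744 and 4338 ± 158 in Vehicle.

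**Figure D4:**
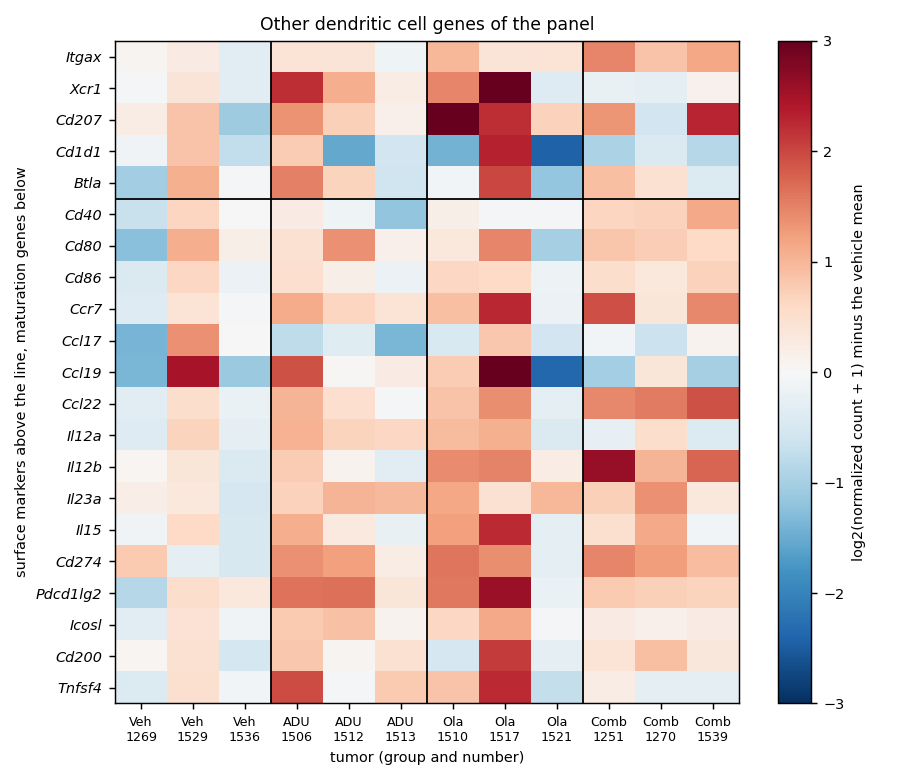
Log2(normalized count + 1) minus the Vehicle mean (colour, cut at 3 in either direction) for 5 surface markers and 16 maturation genes of dendritic cells in the 12 tumors. *Itgax*, *Cd40*, *Ccl22*, *Il12b* and *Cd274* are among the rows red in all 3 Combination tumors, a choice made after the values were seen. *Cd1d1* is blue in those 3, *Xcr1*, *Ccl17* and *Ccl19* are mixed, and Olaparib 1517 is red in most rows.

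Of the 5 surface markers 3 were positive for Combination over Vehicle, with a median log2 change of 0.32. The 2 with the highest levels were *Itgax* and *Cd1d1*, which encodes a molecule that presents lipids to NKT cells and measured 155 ± 31.5 in Combination, 286 ± 160 in Vehicle and 233 ± 181 in ADU-S100 (SD, n = 3 each). The Olaparib tumors 1510, 1517 and 1521 had 95.5, 1278 and 47.1, so that all but 1517 lay below the 154 to 464 of Vehicle. *Itgax* had an unadjusted p under 0.05 in Combination over Vehicle and over ADU-S100, and *Cd207*, encoding langerin, in Olaparib over Vehicle. *Cd207* measured 444 in Olaparib 1510, beside 62.9 and 21.2 in the other Olaparib tumors and 5.54 to 23.8 in Vehicle. *Xcr1*, the chemokine receptor of the cross-presenting lineage, rested on 11 to 23 counts in all 12 tumors and was the one surface marker at an unadjusted p under 0.05 in the interaction, at -2.78 (limma adjusted p = 0.411). Its value was 147 in Olaparib 1517, from 14 counts, and at most 65.5 in the other 11 tumors. *Cd40*, *Cd207* and *Xcr1* are named after their values were seen. Of the marker lists for other cells, T and NK cells are given above. For stroma and endothelium 0 of 11 tested genes were positive for Combination over Vehicle, with a median log2 change of -0.92, and for neutrophils 6 of 6 were, with a median of 0.90. For monocytes and macrophages 6 of 13 were positive with a median of -0.03, and for B cells only 4 of 10 markers passed the filter on low values, with a median of 0.25. Epithelial markers (3 of 5 positive) and pan-leukocyte genes (3 of 4) had medians of 0.06 and 0.27.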

How the data were processed

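Tumor RNA (100 ng) was hybridized to the nanoString nCounter mouse immune panel. Per the study's methods, the authors corrected background and normalized in nSolver to the positive controls and to the geometric mean of 8 housekeeping genes, and the deposited signal values are these normalized counts. Apart from 2 or 3 values at a floor of 1 in each of 5 tumors, at least 99.87% of a tumor's values were whole multiples of a tumor-specific step (tolerance 0.01 counts). Dividing by the step gave the counts and exact Poisson intervals (95%, counting error only), which describe depth and enter no test. Deposited values were tested as log2(value + 1), so changes of low genes are understated. The 689 genes reaching 20 in at least 3 tumors, all 8 members included, were fitted with limma 3.58.1 (R 4.3.3; 12 tumors, 1 mean per group), with Benjamini-Hochberg adjustment over 689 genes and a threshold of 0.05. An exact permutation test of 3 against 3 tumors cannot give a two-sided p below 0.1 and was not used. The fit was tested on simulated data. Members, lists and tests were chosen with earlier results of these data known. From each list of dendritic cell genes the 2 of highest mean level were named, with any past the adjusted threshold; lists for other cell types are given as counts; *Ptprc* and *Itgax* served as references. Alternatives covered pseudocount, filter, scaling, variance model, the methods' test, tumor number and leaving out tumors. Figures used matplotlib 3.10.9.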

Additional observations from a re-analysis of the deposited data

How the results depend on the processing

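None of the 8 genes passed the adjusted threshold in any test run with 10 as the pseudocount, without the filter, with the filter raised to 50 (573 genes, 5 of the 8 among them), under median, quantile or *Ptprc* scaling, an intensity trend, the compared groups alone, the methods' t-test with either adjustment, or the first digits of the tumor number as a block. For the compared groups alone and the methods' t-test these were the 5 pairwise comparisons, without the interaction. The methods' t-test put none of the 8 at an unadjusted p under 0.05 in the 5 pairwise comparisons. Quantile normalization put *Flt3* (ADU-S100 over Vehicle, Combination over ADU-S100 and the interaction) and *Irf8* (Combination over Olaparib) at an unadjusted p under 0.05, and median and *Ptprc* scaling put *Lamp3* there from Olaparib to Combination. The report gives values for 29 of the 48 changes of the 8 genes over the 6 tests. Of 275 recomputed values of these 33 turned sign and none crossed the threshold, and of the other 19 changes 7 turned in at least one setting, among them *Flt3* in the interaction (-0.18, 0.38 by median and 1.41 by quantile scaling). With a tumor left out, 0 to 1 genes passed in Olaparib over Vehicle and in the interaction, the 1 being *Lamp3* without Olaparib 1521, where 55 and 86 of all 689 genes passed, and 0 in the other 4 tests. Of the 29, the log2 changes that turned sign follow, and the cause was not tested. Median scaling gave -0.18 (*Flt3*), -0.0067 (*Flt3l*) and -0.017 (*Lamp3*) for Combination over Vehicle, -0.47 (*Cd83*), -0.046 (*Flt3l*) and -0.012 (*Itgae*) for ADU-S100, and -0.23 (*Cd83*) and -0.23 (*Irf8*) for Olaparib. Quantile normalization gave -0.19 (*Flt3*), -0.17 (*Flt3l*) and -0.023 (*Itgae*) for Combination, -0.55 (*Cd83*), -0.15 (*Flt3l*), -0.27 (*Irf4*) and -0.23 (*Itgae*) for ADU-S100, and -0.30 (*Cd83*), -0.45 (*Flt3*) and -0.24 (*Irf8*) for Olaparib. *Ptprc* scaling gave -0.10 (*Cd83*), -0.44 (*Flt3*), -0.28 (*Flt3l*), -0.0027 (*Itgae*) and -0.27 (*Lamp3*) for Combination, -0.86 (*Cd83*), -0.43 (*Flt3l*), -0.19 (*Irf4*), -0.27 (*Irf8*) and -0.39 (*Itgae*) for ADU-S100, and -0.066 (*Cd83*) and -0.066 (*Irf8*) for Olaparib. The tumor number block gave 0.29 (*Csf2rb*) for Combination, -0.075 (*Cd83*) for ADU-S100 and -0.020 (*Irf8*) for Olaparib. With a tumor left out, 17 of 348 values of the 29 turned sign, and 24 of 228 of the other 19. The ranges were -0.26 to 0.45 (*Flt3*), -0.13 to 0.81 (*Flt3l*) and -0.99 to 0.67 (*Csf2rb*) for Combination, -0.46 to 0.24 (*Flt3*), -0.064 to 0.93 (*Itgae*) and -0.29 to 0.37 (*Cd83*) for ADU-S100, and -0.31 to 1.87 (*Flt3l*), -0.25 to 2.56 (*Csf2rb*), -0.23 to 0.42 (*Irf8*), -0.59 to 1.65 (*Itgae*) and -0.17 to 0.50 (*Cd83*) for Olaparib. Vehicle 1269 or 1529 decided the extremes for *Flt3* and *Cd83*. The planned count tests on recovered counts (edgeR) were not run. In 7 of 12 tumors the lowest value was a floor or more than 1 count, so that the step could not be read from it. The step was instead found from the whole multiples among a tumor's values, and the counts it gave were used only to describe depth. No paired analysis was possible because the groups share no tumor numbers. *Lamp3* rested on under 20 counts in all 12 tumors, *Flt3* in 9 and *Irf4* in 6, which limits what could be seen of them.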
